A study of Mus musculus with 6 samples.

Results

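The 10 genes described here encode proteins of the BCL-2 family, and they were taken by name from the 55291 genes listed for the RNA-seq libraries. Of these, 7 are pro-apoptotic (Bax, Bak1, Bcl2l11, Bbc3, Pmaip1, Bid and Bmf) and 3 are anti-apoptotic (Mcl1, Bcl2l1 and Bcl2). RNA was sequenced from wild-type (WT) mouse embryonic fibroblasts (MEFs) in 3 groups of 2 libraries. One group received vehicle, for a time that the labels do not state. Another received MASM7, a small-molecule activator of the mitofusins, at 1 μM for 6 h, and the last received MFI8, a small-molecule inhibitor of the mitofusins, at 20 μM for 6 h. The mitofusins MFN1 and MFN2 fuse the outer membranes of mitochondria. All groups were WT, and no mitofusin-deficient cells were among the libraries, so an effect of a compound outside the mitofusins cannot be told apart from one through them. The compounds were used at different concentrations, so compound and concentration cannot be told apart either. The comparisons asked whether either compound changed the mRNA level of the genes that set the threshold for mitochondrial apoptosis.

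Proteins of the BCL-2 family decide whether the outer mitochondrial membrane is permeabilised. BAX and BAK, the pore-forming members, oligomerise in that membrane and release cytochrome c, which leads to activation of caspase-9 and then of caspase-3 and caspase-7. BH3-only proteins such as BIM, PUMA, NOXA, BID and BMF signal stress to them, either by engaging BAX and BAK or by occupying the anti-apoptotic members. MCL-1, BCL-XL and BCL-2 hold both kinds of pro-apoptotic protein in check. Much of this control acts on the proteins, through cleavage of BID, relocation of BAX and rapid turnover of MCL-1 and NOXA, and mRNA levels do not measure it.

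The libraries held between 22791792 and 30677751 counts on genes. Of the 12 fibroblast markers listed, 10 had at least 1 TPM (transcript abundance scaled for transcript length and library total) in every library. The exceptions were Thy1 and Postn, at most 0.751 TPM and 0.292 TPM. No epithelial, endothelial or pluripotency marker reached 1 TPM in every library, and Pou5f1 had 0 TPM in all of them. Cd68, Csf1r, Tubb3 and Map2 were detected in all libraries, and the summed level of the muscle and neural markers was 52.5 to 54.7 TPM with vehicle, 66.7 to 67.5 with MASM7 and 67.1 to 74.5 with MFI8. Their part in the results was not tested. In bulk RNA, a change in the number of cells and a change in RNA per cell cannot be told apart.

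The anti-apoptotic Mcl1 and the pore-forming genes were the most abundant mRNAs of the family, while most genes for BH3-only proteins were expressed at low levels. On the scale of TPM, Mcl1 stood at 253 and 248 in the vehicle libraries, above 95.3% of the 14290 genes tested. Bak1 followed at 197 and 204 TPM, and Bax at 150 and 142 TPM. These 3 genes did not overlap with one another in vehicle.

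Lower in the order, Bcl2l1, which encodes BCL-XL, had 45.4 and 38.8 TPM with vehicle. Bid had 33.4 and 34.1 TPM and was the most abundant of the 5 BH3-only members. Bbc3, the gene of PUMA, had 11.7 and 8.59 TPM, and Bcl2l11, the gene of BIM, 10.9 and 7.15 TPM, so that the levels of this pair overlapped and their order was not resolved. Bcl2 had 5.26 and 6.35 TPM, which lies at the 29th percentile of the genes tested. Bmf stayed below 0.6 TPM in every library, and Pmaip1, the gene of NOXA, below 0.5 TPM.

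The order of the group means was the same with both compounds, apart from Bmf and Pmaip1, whose levels overlapped with MFI8. With MASM7, Mcl1 had 239 and 216 TPM and Bak1 214 and 224 TPM, so that their levels overlapped. In the plot of levels by library, the 2 symbols of a group lie close together for the abundant genes and further apart for Bcl2l11 and Bmf.

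**Figure D1:**
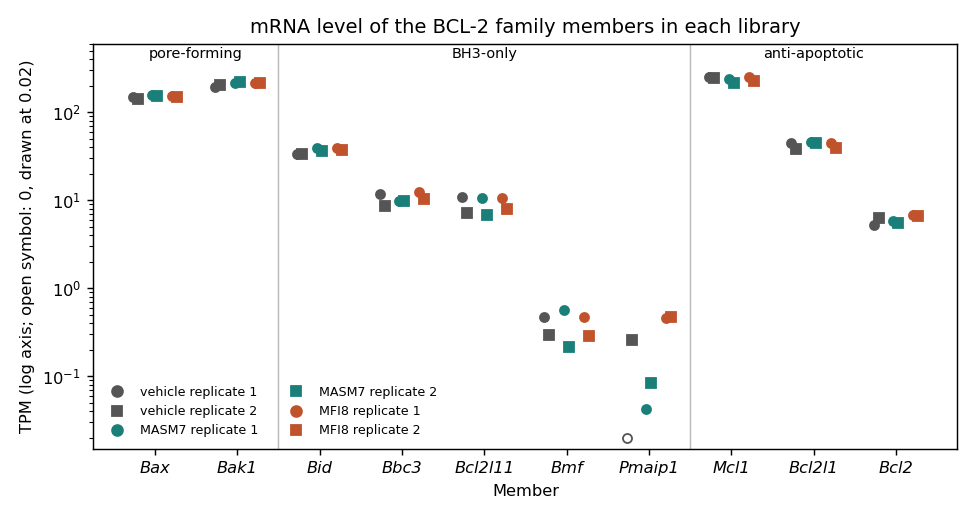
Level of each member in each library in TPM, on a log axis, with colours for the groups and circles and squares for replicates 1 and 2. Mcl1, Bak1 and Bax lie above 100 TPM in all libraries, and Bmf and Pmaip1 below 1 TPM. The open symbol is the library without counts of Pmaip1.

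The raw counts were modelled over all libraries in edgeR, and p-values were adjusted by the Benjamini-Hochberg method over all 14290 genes tested. Of the 10 members, 9 had enough counts to be tested, and Pmaip1 did not. No member passed an adjusted p of 0.05 in any comparison. In this fit, the share of all tested genes that passed was also 0.0% for MFI8 against vehicle, 0.0% for MASM7 against vehicle and 0.0% for MFI8 against MASM7. DESeq2 called 48, 2 and 29 genes in these comparisons and limma on log2(TPM + 1) with its filter on low TPM called 0, 0 and 0, with no member among them. With the replicate number added to the model as a block, edgeR called 720, 554 and 439 genes and DESeq2 called 220, 205 and 106. Again no member was among them, and no label says what a replicate number marks. The smallest adjusted p of a member in edgeR without the block was 0.518 with MFI8 and 0.473 with MASM7. The p-values measure the spread between these libraries, which edgeR estimates for each gene partly from the other genes. The series describes the libraries as biological replicates.

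At an unadjusted p under 0.05, 0 members were higher and 0 lower with MFI8, where 5.21% of all tested genes were higher and 4.65% lower. With MASM7, 2 members (Bak1 and Bid) were higher and 0 lower, where 5.32% of all tested genes were higher and 4.88% lower. With the offsets for GC content and length described below, neither had such a p with MASM7, at 0.467 for Bak1 and 0.0518 for Bid (unadjusted, edgeR). Between the compounds, 0 members had such a p, against 7.18% of all tested genes.

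A weaker criterion is that both libraries of a group lie on the same side of both libraries of the other in CPM (counts scaled by the library total and its TMM factor). With MASM7, 4 of the 9 tested members were higher in this sense (Bax, Bak1, Bid and Bcl2l1) against 21.2% of all tested genes, and 1 was lower (Mcl1) against 21.6%. With MFI8, 3 were higher (Bak1, Bid and Bcl2) against 20.9%, and 0 were lower against 19.3%. Between MFI8 and MASM7, 5 members did not overlap (Bax, Bak1, Bbc3, Bcl2l1 and Bcl2), against 39.2% of all tested genes. In TPM, compared after the data had been seen, 3 members were higher with MASM7, since Bcl2l1 overlapped with vehicle, and Bak1 overlapped between the compounds. The share of all tested genes is given in CPM only, so these counts in TPM have none beside them.

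The median log2 fold change of the 6 tested pro-apoptotic members was 0.051 with MFI8 and 0.090 with MASM7, and that of the 3 anti-apoptotic members was -0.015 with MFI8 and -0.016 with MASM7. Over all genes tested the median was 0.0027 with MFI8 and 0.00067 with MASM7. With the GC and length offsets, the median of the pro-apoptotic members was 0.0086 with MFI8 and -0.010 with MASM7, and that of the anti-apoptotic members -0.076 and 0.030, so that both signs turned with MASM7. Both comparisons use the same vehicle libraries.

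Bid, whose protein links death receptors to mitochondria once caspase-8 has cut it, was the member with the smallest p for MFI8. Its expression in CPM was 33.8 and 34.0 for vehicle, 39.9 and 37.4 for MASM7, and 38.7 and 36.9 for MFI8. Every treated library was above both vehicle libraries, which differed from each other by less than 1%. The log2 fold change was 0.19 with MASM7 (standard error 0.071, 95% interval 0.030 to 0.35, adjusted p = 0.477 from edgeR). It was 0.16 with MFI8 (standard error 0.071, 95% interval -0.0042 to 0.31, adjusted p = 0.518 from edgeR). These intervals leave out any rise above 1.27-fold with MASM7 and above 1.24-fold with MFI8.

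Bid lies on chromosome 6 of GRCm38 (120891930 to 120916853, minus strand), and 628 of its exonic bases, or 17.7%, overlap exons of Bcl2l13 on the other strand. The strand setting of the counting is not given in the sources used here, so reads in the shared bases could not be assigned to one of the genes. Bcl2l13, which encodes a mitophagy receptor, had a log2 fold change of -0.017 with MASM7 and 0.018 with MFI8, with overlapping libraries in both cases.

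Bak1 (chromosome 17, 27019810 to 27029009, minus strand) encodes BAK, which resides in the outer mitochondrial membrane. Its expression was 135 and 138 CPM for vehicle, 147 and 155 for MASM7, and 143 and 145 for MFI8. All treated libraries were above the vehicle libraries, and both MASM7 libraries were also above both MFI8 libraries in CPM but not in TPM. Bak1 differed from vehicle by a log2 fold change of 0.15 with MASM7 (standard error 0.053, 95% interval 0.030 to 0.27, adjusted p = 0.473 from edgeR) and 0.081 with MFI8 (standard error 0.053, 95% interval -0.037 to 0.20, adjusted p = 0.629 from edgeR).

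Bax (chromosome 7, 45461697 to 45466898, minus strand) encodes BAX, which shuttles between the cytosol and the mitochondria and is a target gene of p53. The vehicle libraries had 67.3 and 62.8 CPM, the MASM7 libraries 71.8 and 70.4, and the MFI8 libraries 66.8 and 65.2. The MASM7 libraries were above all others, whereas those with MFI8 lay between the vehicle libraries. For Bax the log2 fold change was 0.13 with MASM7 (standard error 0.060, adjusted p = 0.501 from edgeR) and 0.021 with MFI8 (standard error 0.061, adjusted p = 0.934 from edgeR). The 95% interval with MFI8 ran from 0.924-fold to 1.11-fold.

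Bbc3 (chromosome 7, 16308393 to 16318205, plus strand), another target gene of p53, encodes PUMA, a BH3-only protein that binds all anti-apoptotic members. The vehicle libraries held 161 and 129 of its counts (7.06 and 5.13 CPM), the MASM7 libraries 176 and 181 (5.95 CPM in both), and the MFI8 libraries 168 and 187 (7.32 and 6.06 CPM). Both treated groups overlapped with the vehicle libraries, whose own values differed most. The log2 fold change was -0.030 with MASM7 (95% interval -0.43 to 0.37) and 0.13 with MFI8 (95% interval -0.27 to 0.53, adjusted p = 0.847 from edgeR), so a rise of up to 1.45-fold with MFI8 lay within the interval.

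Bcl2l11 (chromosome 2, 128126038 to 128162547, plus strand) encodes BIM and is a target of FOXO3 and of CHOP in stressed cells. Its expression was 25.0 and 16.1 CPM for vehicle, 24.3 and 15.8 for MASM7, and 23.9 and 17.8 for MFI8. In each group replicate 1 was higher than replicate 2, by 0.63, 0.62 and 0.42 on the log2 scale, and the groups overlapped throughout. The log2 fold changes were -0.033 with MASM7 (standard error 0.23, adjusted p = 0.974 from edgeR) and 0.014 with MFI8 (standard error 0.24, adjusted p = 0.988 from edgeR). These standard errors include the difference between replicates 1 and 2, since the fit had no replicate block. Over 13 alternatives that left out no library, the log2 fold change ranged from 0.0063 to 0.063 with MFI8. With MASM7 it ranged from -0.050 to -0.012.

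Bmf (chromosome 2, 118528757 to 118549687, minus strand), whose protein is tethered to the actin cytoskeleton until it is released, had between 10 and 25 counts in a library. Its intervals were the widest of the 9 tested members, from 0.423-fold to 2.20-fold with MFI8 and from 0.466-fold to 2.30-fold with MASM7. For Pmaip1, which encodes NOXA, an antagonist of MCL-1, the vehicle libraries held 0 and 5 counts, the MASM7 libraries 1 and 2, and the MFI8 libraries 8 and 11. On the scale of CPM these were 0 and 0.199, 0.0338 and 0.0657, and 0.348 and 0.356. Both MFI8 libraries were above the other 4. A count of 0 in the vehicle library allows up to 3 counts, or 0.131 CPM, and covers counting error only. When genes with as little as 1 count were included in the test, Pmaip1 had an adjusted p of 0.613 for MFI8 against vehicle and 0.233 for MFI8 against MASM7 (edgeR).

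Mcl1 (chromosome 3, 95658788 to 95663176, plus strand) encodes the short-lived anti-apoptotic protein MCL-1, which binds BAK in the outer membrane. With vehicle it had 246 and 238 CPM, with MASM7 233 and 212, and with MFI8 239 and 215. Both MASM7 libraries were below the vehicle libraries, while replicate 1 with MFI8 lay between them. Mcl1 had a log2 fold change of -0.12 with MASM7 (standard error 0.068, 95% interval -0.27 to 0.029, adjusted p = 0.544 from edgeR). With MFI8 it was -0.095 (standard error 0.068, 95% interval -0.25 to 0.056, adjusted p = 0.668 from edgeR).

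Bcl2l1 (chromosome 2, 152780668 to 152831728, minus strand) encodes BCL-XL, which returns BAX from the mitochondria to the cytosol. Its expression was 59.2 and 50.0 CPM for vehicle, 60.9 and 59.6 for MASM7, and 57.5 and 50.7 for MFI8. The MASM7 libraries were above all others in CPM, where the lower of them stood less than 1 CPM over the higher vehicle library, and in TPM it lay below that library. Its log2 fold change was 0.14 with MASM7 (standard error 0.089, adjusted p = 0.584 from edgeR) and -0.015 with MFI8 (standard error 0.090, adjusted p = 0.968 from edgeR). The counts cover all transcripts of the gene, so the long form BCL-XL and the pro-apoptotic short form BCL-XS were not separated.

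Bcl2 (chromosome 1, 106538178 to 106714274, minus strand), the founding member of the family, had 13.7 and 16.3 CPM for vehicle, 15.3 and 14.5 for MASM7, and 17.2 and 17.1 for MFI8. Both MFI8 libraries were above the other 4, and those with MASM7 lay between the vehicle libraries. Its log2 fold change was 0.18 with MFI8 (standard error 0.11, 95% interval -0.054 to 0.42, adjusted p = 0.596 from edgeR) and -0.016 with MASM7 (standard error 0.11, adjusted p = 0.972 from edgeR).

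**Figure D2:**
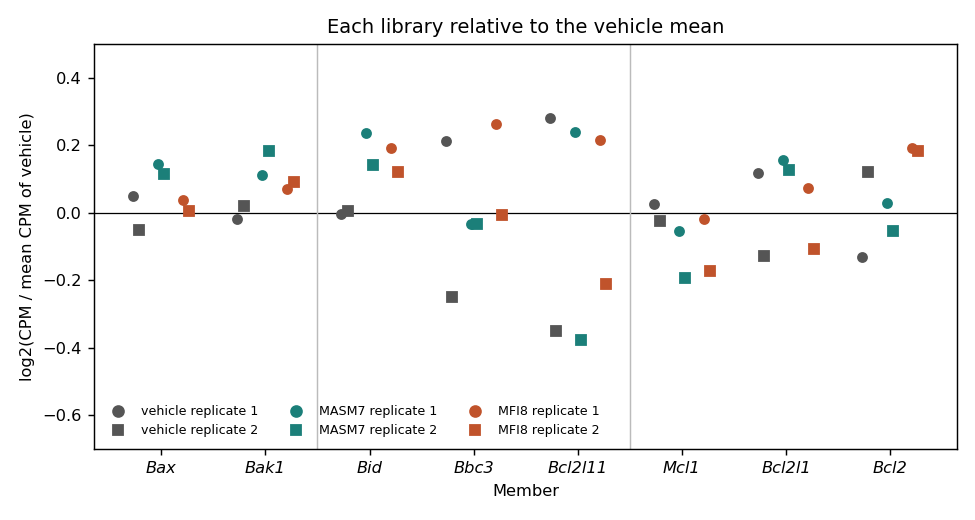
CPM of each library divided by the mean of the vehicle libraries, on a log2 scale, for the 8 members with more than 100 counts in every library. All treated symbols of Bid and Bak1 lie above both vehicle symbols, and the circles of Bcl2l11 (replicate 1) lie above its squares (replicate 2) in each group.

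Between MFI8 and MASM7, without the offsets for GC content described below, the largest difference among members with more than 100 counts in every library was that of Bcl2. It was 0.20 higher with MFI8 on the log2 scale (standard error 0.10, 95% interval -0.034 to 0.43, adjusted p = 0.717 from edgeR). Bbc3 followed, at 0.16 higher with MFI8 (95% interval -0.23 to 0.55). Bcl2l1, Bax and Bak1 were lower with MFI8 than with MASM7, with log2 differences of -0.16, -0.11 and -0.066. The remaining members, Bid, Mcl1, Bcl2l11 and Bmf, had overlapping libraries. For Bid the interval of the difference ran from -0.19 to 0.12 and for Mcl1 from -0.12 to 0.18.

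**Figure D3:**
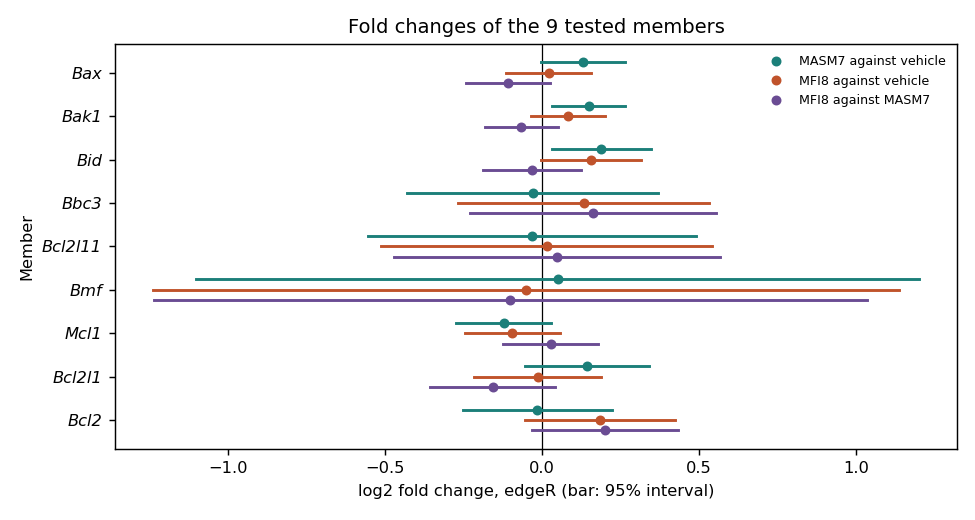
Log2 fold changes from edgeR with 95% intervals for the 9 tested members in the 3 comparisons. The intervals of Bak1 and Bid with MASM7 leave out 0 before adjustment for multiple tests, and those of Bmf extend beyond 1 in both directions.

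Differences between the groups depended on the base composition of the transcripts. When the tested genes were divided into 5 classes by GC content, the median log2 difference of MASM7 and vehicle went from -0.094 in the class with the lowest GC content to 0.11 in that with the highest. For MFI8 and vehicle it went from -0.069 to 0.080. Transcripts of Bbc3 (65.2% GC), Bax (63.5%), Bak1 (57.1%) and Bcl2l1 (55.9%) belong to the highest class. Those of Bid (51.3%), Mcl1 (48.7%) and Bcl2 (46.3%) do not.

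After offsets for GC content and length, added after the data had been seen, the log2 fold change of Bak1 was 0.038 with MASM7 and 0.011 with MFI8, and that of Bax was -0.014 and -0.033. Bcl2l1 had 0.051 and -0.076. Bbc3, at -0.20 and 0.048, was lower with both compounds than without the offsets. Bid had 0.16 with MASM7 and 0.14 with MFI8, and Mcl1 had -0.12 and -0.10. Bcl2 had 0.17 with MFI8. Between MFI8 and MASM7 the offsets turned the order of Bcl2 and Bbc3, at 0.14 and 0.25. The adjusted p of each of these was above 0.7.

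**Figure D4:**
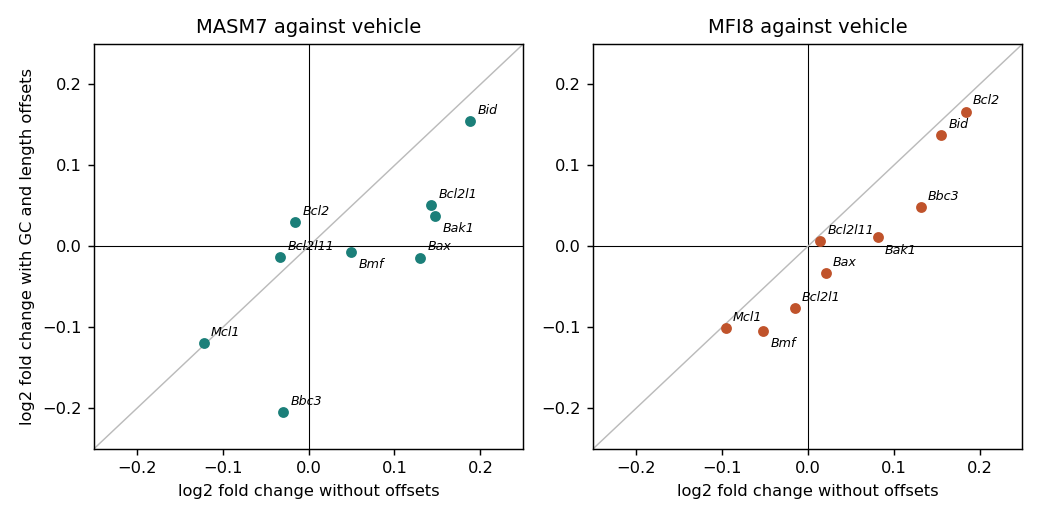
Log2 fold changes of the 9 tested members against vehicle after offsets for GC content and length (vertical axis) and without them (horizontal axis), with the grey line where both are equal. Bid and Mcl1 lie close to the line for both compounds, whereas Bax, Bak1 and Bcl2l1 with MASM7 lie below it.

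The balance of the family was described by the summed TPM of the 7 pro-apoptotic members divided by that of the 3 anti-apoptotic members. The sums were 403 and 396 TPM over 304 and 293 TPM for vehicle, 435 and 434 over 291 and 267 for MASM7, and 430 and 423 over 303 and 273 for MFI8. The ratio was 1.33 and 1.35 for vehicle, 1.49 and 1.63 for MASM7, and 1.42 and 1.55 for MFI8. All treated libraries were above both vehicle libraries, and the treated groups overlapped. On the log2 scale the ratio was 0.22 higher with MASM7 and 0.15 higher with MFI8, beside standard deviations of 0.064 and 0.066 pooled over the groups compared. With 2 libraries against 2, an exact permutation test cannot give a two-sided p below 0.333, so no test was made.

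This ratio reflects a few abundant mRNAs. Bax and Bak1 made up 85.3% to 87.6% of the pro-apoptotic sum in each library, and Mcl1 made up 81.0% to 84.6% of the anti-apoptotic sum. Without Bak1 and Mcl1, the ratio was 4.08 and 4.26 for vehicle, 4.20 and 4.12 for MASM7, and 4.16 and 4.42 for MFI8, and the groups overlapped. With the offsets for GC content and length it was 1.34 and 1.44 for vehicle, 1.46 and 1.54 for MASM7, and 1.40 and 1.57 for MFI8. MASM7 was then still above vehicle in both libraries, and MFI8 overlapped with vehicle. A ratio of mRNAs says nothing about the proteins or about how they are bound to each other.

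**Figure D5:**
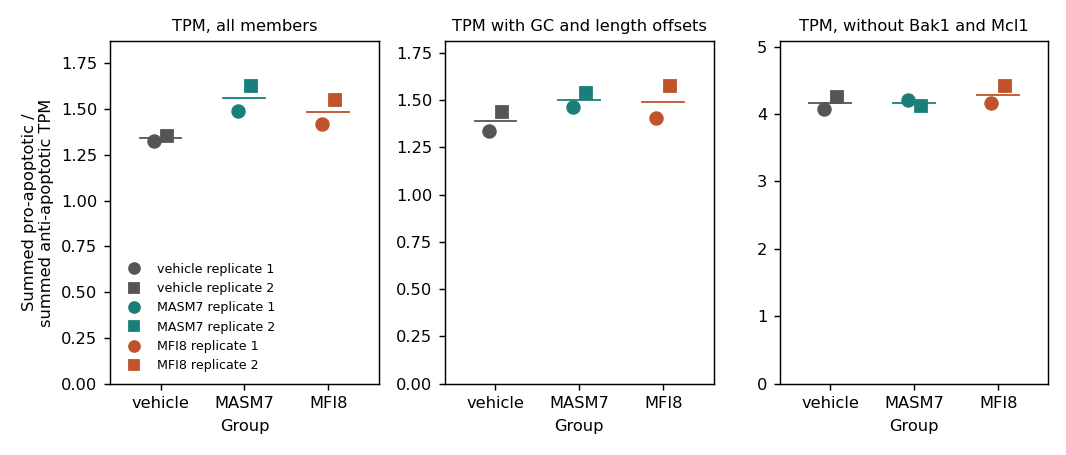
Summed TPM of the pro-apoptotic members divided by that of the anti-apoptotic members in each library, with lines at the group means, for all members, with the offsets, and without Bak1 and Mcl1. The treated libraries lie above vehicle in the left panel, at 1.42 to 1.63 against 1.33 and 1.35, and the groups overlap in the right panel.

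Before the offsets, Bid and Bak1 were higher in every treated library, and Mcl1 was lower in both MASM7 libraries. Each has 1 promoter window in RefSeq's table for GRCm38.p6, printed below. Bax, higher in both MASM7 libraries, and Bcl2, higher in both MFI8 libraries, also have 1 window each, which is not printed. The windows run from 250 bases before a start in RefSeq to 50 bases after it. Those printed are given from 5′ to 3′ on the strand of the gene. RefSeq's starts differ from those of the GENCODE vM21 genes whose positions are given above. For Bak1 the RefSeq start is at 27028627 and the GENCODE start at 27029009, so that its window lies inside the GENCODE gene, and for Mcl1 they are at 95658721 and 95658788, so that its window ends before the GENCODE start. Both strands were searched for GGGCGG, the GC box of Sp1 proteins, for CCAAT, a motif of the factor NF-Y, and for CACGTG, the E-box. The search also covered TGACGTCA, the cAMP response element, TGATGCAA, a composite site of C/EBP and ATF factors, and TATAAA, the TATA box. Matches are in capitals, and overlapping matches were counted separately.
Bid (chr6:120916775-120917074, minus strand): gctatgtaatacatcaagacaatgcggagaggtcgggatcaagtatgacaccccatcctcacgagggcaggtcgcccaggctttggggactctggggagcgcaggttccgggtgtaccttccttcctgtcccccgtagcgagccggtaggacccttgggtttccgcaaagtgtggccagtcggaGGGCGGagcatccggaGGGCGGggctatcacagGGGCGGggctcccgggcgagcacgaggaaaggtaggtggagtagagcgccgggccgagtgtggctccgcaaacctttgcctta
Bak1 (chr17:27028578-27028877, minus strand): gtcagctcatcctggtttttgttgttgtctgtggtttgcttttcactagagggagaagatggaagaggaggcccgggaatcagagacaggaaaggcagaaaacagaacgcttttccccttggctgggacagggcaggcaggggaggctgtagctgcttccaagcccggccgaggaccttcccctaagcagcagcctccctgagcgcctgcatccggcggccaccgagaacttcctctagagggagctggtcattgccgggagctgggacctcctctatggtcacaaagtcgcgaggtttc
Mcl1 (chr3:95658471-95658770, plus strand): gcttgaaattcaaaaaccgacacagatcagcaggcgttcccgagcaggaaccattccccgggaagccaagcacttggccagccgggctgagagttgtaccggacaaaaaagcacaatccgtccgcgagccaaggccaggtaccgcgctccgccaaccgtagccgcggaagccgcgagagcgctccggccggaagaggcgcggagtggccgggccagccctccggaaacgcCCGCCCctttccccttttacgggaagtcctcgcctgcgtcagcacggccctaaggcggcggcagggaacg
The window of Bid held 3 GC boxes and that of Mcl1 held 1, while none of the 6 motifs was found in the RefSeq window of Bak1. The sequence before the GENCODE start of Bak1 was not searched.

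GC boxes were present in 35.7% of the 32851 promoters of the table, the NF-Y motif in 37.4%, E-boxes in 7.15%, TATA boxes in 13.6%, cAMP response elements in 1.79% and the composite site in 0.895%. Over the 9 members whose promoters were read, neither a TATA box, a cAMP response element nor a composite site was found. GC boxes were also found in the promoters of Bax (3), Bcl2 (7), Bcl2l11 and Bbc3 and in 1 of the 3 promoters of Bmf, and E-boxes in those of Bax (2) and Bbc3. The NF-Y motif was found in both windows of Bcl2l11, in 2 of the 3 of Bmf and in 1 of the 3 of Bbc3. The absence of these letters in a window of this length says nothing about the binding of a factor.

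Of 15 other genes related to the BCL-2 family, 8 were tested and 0 passed an adjusted p of 0.05 with either compound in the fit without the replicate block. With the block, Bnip3, Bnip3l and Bcl2l15 passed for MFI8 against vehicle. At an unadjusted p under 0.05 without the block, 2 were higher and 2 lower with MFI8, beside 5.21% and 4.65% of all tested genes. With MASM7, 1 was higher and 2 lower, beside 5.32% and 4.88%. Bok, a pore-forming relative of Bax and Bak1 that is controlled through degradation of its protein, had 40.8 and 39.9 TPM for vehicle, 46.0 and 49.9 for MASM7, and 50.2 and 46.4 for MFI8. Every treated library was above both vehicle libraries. The log2 fold change was 0.27 with MASM7 (standard error 0.086, adjusted p = 0.473 from edgeR) and 0.23 with MFI8 (standard error 0.087, adjusted p = 0.436 from edgeR). With the correction for GC content and length these values were 0.12 and 0.16 (unadjusted p of 0.134 and 0.0553 from edgeR).

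Bnip3 and Bnip3l, which encode mitophagy receptors with a BH3-like region, had the lowest fold changes of this list with both compounds. Neither passed the test without the replicate block. Bnip3 had 20.5 and 21.0 TPM for vehicle, 16.7 and 16.1 for MASM7, and 14.3 and 17.4 for MFI8, with log2 fold changes of -0.32 and -0.41 (adjusted p = 0.473 and 0.358 from edgeR). Bnip3l, at 63.0 and 61.3 TPM with vehicle, had log2 fold changes of -0.18 with MASM7 and -0.19 with MFI8 (adjusted p = 0.473 and 0.412 from edgeR). No treated library overlapped with vehicle for this pair. With the offsets, Bnip3 had -0.24 with MASM7 and -0.33 with MFI8, and Bnip3l had -0.10 and -0.14, of which only Bnip3 with MFI8 kept an unadjusted p under 0.05. Bcl2l15 had between 1 and 19 counts and a log2 fold change of 1.97 with MFI8 (95% interval 0.35 to 3.59).

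The BH3-only gene Bad and the anti-apoptotic Bcl2l2, which encodes BCL-W, had log2 fold changes of 0.022 and 0.11 with MFI8 and overlapped with vehicle. The 7 genes that could not be tested were Bik, Hrk, Bcl2l10, Bcl2l14, Bcl2a1a, Bcl2a1b and Bcl2a1d, none above 0.432 TPM in any library.

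Of 14 transcription factors and regulators that act on these genes, 13 were tested. The list was chosen with earlier results of these data known, so its counts are a description only. At an unadjusted p under 0.05, 1 (Trp53) was higher and 0 lower with MASM7, beside 5.32% and 4.88% of all tested genes. Between the compounds, 4 were higher and 1 lower with MFI8, beside 7.18% in either direction. Against vehicle, 6 were higher and 0 lower with MFI8, beside 5.21% and 4.65%. These were Ddit3, Atf3, Trib3, Atf4, Jun and Rela. None of them passed after adjustment in this fit, while Ddit3, Atf3, Trib3, Atf4 and Jun passed with the replicate block. With the GC and length offsets Rela had a log2 fold change of 0.064, against 0.15 without them (unadjusted p of 0.226 with the offsets). Ddit3, which encodes CHOP, an activator of Bcl2l11 and Bbc3 in the stress response, had 24.9 and 23.3 TPM for vehicle, 28.4 and 28.6 for MASM7, and 36.7 and 44.7 for MFI8 (log2 fold change with MFI8 0.74, adjusted p = 0.0924 from edgeR). Atf3 had 3.65 and 5.05 TPM for vehicle, 4.01 and 5.90 for MASM7, and 11.3 and 35.0 for MFI8, so that replicate 2 with MFI8 was well above replicate 1. For Ddit3 and Atf3 both MFI8 libraries were above all others, whereas Bcl2l11 and Bbc3 overlapped with vehicle in the same libraries.

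Trp53, which encodes p53, had 256 and 249 TPM for vehicle, 274 and 277 for MASM7, and 250 and 261 for MFI8, a log2 fold change of 0.14 with MASM7 and of -0.012 with MFI8 (adjusted p = 0.473 and 0.953 from edgeR). With the offsets its log2 fold change with MASM7 was 0.079 (unadjusted p of 0.0888 from edgeR). Mdm2, its target and inhibitor, had between 58.7 and 64.4 TPM in all libraries. Trp73 had 0 TPM in all of them.

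Of 13 genes for the turnover of these proteins or for their partners, 11 were tested. With MFI8, Huwe1, a ubiquitin ligase of MCL-1, was higher at an unadjusted p under 0.05 (log2 fold change 0.17, adjusted p = 0.361 from edgeR), and 0 were lower, so that 1 of 11 stood beside 5.21% of all tested genes higher and 4.65% lower. With MASM7, 0 were higher and 0 lower at that p, beside 5.32% and 4.88%. With the offsets for GC content and length, the log2 fold change of Huwe1 with MFI8 was 0.057 (unadjusted p of 0.212 from edgeR). Vdac2, which brings BAK and BAX to mitochondria, had between 147 and 155 TPM in all libraries. Dynll2, the motor light chain that anchors BMF, had 351 and 359 TPM with vehicle and between 338 and 343 TPM in the treated libraries, and its log2 fold changes were -0.047 with MASM7 and -0.080 with MFI8. Ywhaz, a 14-3-3 protein that holds BAD, and Marchf5, a mitochondrial ubiquitin ligase, had log2 fold changes of -0.11 and -0.068 with MFI8 and -0.12 for both with MASM7 (adjusted p between 0.531 and 0.746 from edgeR).

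The pattern of Bid over the 6 libraries, in log2 CPM, was most like that of Cacnb2 (Pearson r = 0.991), Zfp787 (r = 0.989) and Gm7265 (r = 0.982). These were the highest values among all other tested genes and are given as a description over 6 libraries that share their treatment groups, with no p. Cacnb2 had 1.27 and 1.23 CPM with vehicle against 1.82 to 2.50 in the treated libraries, and Zfp787 had 14.3 and 14.5 CPM against 16.0 to 17.5.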

How the data were processed

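Per the submitters' processing notes and the study's methods, the authors trimmed reads (Trimmomatic), aligned them to mm10/GRCm38 (STAR) and counted those on exons (featureCounts). The versions of these 3 tools and the strand setting are not given in the sources used here. The deposited raw counts per gene and the deposited TPM values were used, and the deposited normalized counts (raw counts divided by DESeq2 size factors) were not. The ratio of annotated exon length (GENCODE vM21) to the length behind the TPM was the same for all members within 0.1%. Groups followed the labels.

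Counts were fitted in edgeR 4.0.16 (R 4.3.3) with TMM factors, filterByExpr and 1 coefficient per group, and tested two-sided by the quasi-likelihood F test with Benjamini-Hochberg adjustment over 14290 genes at 0.05. Alternatives used other scalings and filters, DESeq2 1.42.0, limma 3.58.1 on log2(TPM + 1) or log2(TPM + 0.1), a replicate block and each library left out. Offsets for GC content and length (lowess, span 0.3) were added later.

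The members and the gene lists were chosen with earlier results of these data known. All members are named. Of the other lists, genes with an unadjusted p under 0.05 or the highest TPM in vehicle are named, up to 4 a list by level, and 3 genes by their likeness to the member with the smallest p for MFI8. Mdm2, Trp73, Bad, Bcl2l2, Bcl2l13, Vdac2, Marchf5 and the genes that could not be tested were named for their role. March5 is listed as Marchf5.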

Additional observations from a re-analysis of the deposited data

How the results depend on the processing

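Of 529 values of members under 19 alternatives and 3 comparisons, 508 had an adjusted p, and none of these was under 0.05. DESeq2, mostly with the block, gave none for the other 21. The smallest was 0.0629 (Bak1 with MASM7, with the replicate block). Over all genes, the count of calls for MFI8 against vehicle, MASM7 against vehicle and MFI8 against MASM7, which was 0 in each, was 256, 127 and 168 with no filter beyond 1 count, 48, 2 and 29 with DESeq2, 720, 554 and 439 with the replicate block, 220, 205 and 106 with DESeq2 and the block, and 595, 152 and 675 with the block and the GC and length offsets. With only the groups compared it was 1 (MASM7) and 2 (MFI8 against MASM7), with limma on genes with TPM above 0 it was 13 (MASM7), and with 1 library left out it ranged from 0 to 26, 0 to 2 and 0 to 24. Both 26 and 24 came without replicate 1 of MFI8, and the 2 for MASM7 came without replicate 2 of MASM7. No label says what the replicate numbers, which the groups share, mark. Deviations of same-numbered libraries correlated at 0.188 (vehicle and MASM7), 0.152 (vehicle and MFI8) and 0.165 (MASM7 and MFI8) over 14290 genes. The block changed no call of a member, but of the other genes named, Ddit3, Atf3, Trib3, Atf4, Jun, Huwe1, Bnip3, Bnip3l and Bcl2l15 passed with it for MFI8 against vehicle.

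Of the 529 log2 fold changes, 43 had the opposite sign. The cause was not tested. With the GC and length offsets, Bax was -0.033 with MFI8 and -0.014 with MASM7 (-0.032 and -0.015 with the block), Bmf -0.0069 with MASM7 (-0.035 with the block) and Bcl2 0.030 with MASM7 (0.030 with the block). In limma, Bid was 0.011 between the compounds at either pseudocount and filter, Bcl2l1 was 0.015 with MFI8 and Bmf was 1.1e-05 with MFI8. DESeq2 with the block gave Bmf -0.035 with MASM7 and 0.0063 between the compounds, and with no filter Bcl2 was 0.0037 with MASM7. With 1 library left out, values with MFI8 ranged from -0.028 to 0.073 (Bax), -0.27 to 0.36 (Bcl2l11), -0.085 to 0.38 (Bbc3), -0.42 to 0.32 (Bmf) and -0.13 to 0.11 (Bcl2l1). With MASM7 they ranged from -0.37 to 0.31 (Bcl2l11), -0.25 to 0.21 (Bbc3), -1.90 to 3.58 (Pmaip1), -0.77 to 0.58 (Bmf) and -0.13 to 0.12 (Bcl2). Between the compounds they ranged from -0.23 to 0.39 (Bcl2l11), -0.080 to 0.016 (Bid), -0.63 to 0.72 (Bmf) and -0.049 to 0.10 (Mcl1). Without a change of sign, Bcl2 ranged from 0.068 to 0.32 and Mcl1 from -0.17 to -0.020 with MFI8, and with MASM7 Mcl1 ranged from -0.19 to -0.054, Bcl2l1 from 0.025 to 0.27 and Bax from 0.081 to 0.18. Between the compounds, Bbc3 ranged from 0.029 to 0.30, Bcl2l1 from -0.25 to -0.068 and Bak1 from -0.10 to -0.029. The log2 ratio of the summed members was 0.041 with MFI8, -0.0018 with MASM7 and 0.043 between the compounds without Bak1 and Mcl1, and 0.11 with MASM7 under the offsets. Depth limits Pmaip1 and Bmf, with at most 11 and 25 counts.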
